A study of Homo sapiens with 14 samples.

Results

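The genes of bone morphogenetic protein (BMP) signalling and the ID genes were followed in cells of MEL1, a human embryonic stem cell line, which the methods list as MEL1 INS GFP/W, a form with a GFP reporter at the INS locus. The set held 10 genes of the 60624 listed in each library: the inhibitors of DNA binding ID1, ID2, ID3 and ID4, the ligands BMP2, BMP4 and BMP7, the inhibitory SMADs SMAD6 and SMAD7, and the decoy receptor BAMBI. They were found by Ensembl identifier and symbol, and all 10 were present. The set was selected on values of these same libraries, above all the difference between expandable pancreatic progenitors (ePPs) and the β-like cells made from them (ePP-β), so that difference is given as a description with no test.

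RNA was sequenced in 14 libraries of 9 groups. Undifferentiated cells (hPSC), definitive endoderm (DE), pancreatic progenitors (PP2) and directly made β-like cells (SC-β) had 1 library each and shared a batch. The ePPs at passages 9 and 21 (ePP-P9 and ePP-P21) and ePP-β had 2 libraries each in another batch, and progenitors kept for 7 days in DMSO, the solvent, or in I-BET151 at 1 μM, which blocks the BET bromodomain proteins, had 2 each in the last batch. According to the culture methods, the ePPs grew on feeder cells with epidermal and fibroblast growth factors, I-BET151 and 616452, an inhibitor of the TGF-β type I receptor, so both ePP groups carried both compounds, and the part of feeder reads in their values was not tested. The DMSO and I-BET151 groups had the same growth factors and 616452. On the way to β-like cells, the medium of days 12 to 18 held 0.2 μM LDN-193189, an inhibitor of BMP type I receptors, together with 616452. The methods list neither growth factor for this medium, and the medium after day 18 held no LDN-193189. The labels do not give the day on which ePP-β was harvested. In ePP-β, differentiation, the exposure to LDN-193189, the other changes of medium and the end of I-BET151 therefore cannot be told apart.

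BMP ligands bind pairs of type I and type II receptors on the cell surface, which phosphorylate SMAD1, SMAD5 and SMAD9. These join SMAD4, enter the nucleus and switch on target genes, of which the ID genes are the best known. ID proteins have a helix-loop-helix but no DNA-binding region, and they hold E proteins in pairs that cannot bind DNA, away from tissue-restricted factors such as NEUROD1. SMAD6, SMAD7 and BAMBI are induced by the same pathway and damp it. In the developing pancreas, BMP signalling and ID proteins are associated with progenitors and with duct or liver fates, and BMP inhibitors are commonly added to media for endocrine differentiation.

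Sequences next to the starts of ID1, ID3 and BAMBI are shown because the pathway is read out at its target genes by SMAD proteins. In the runs below, capitals mark GGCGCC, the palindromic core of BMP-responsive elements, and GTCT or its reverse complement AGAC, the SMAD-binding element. The first 3 runs are the 250 bases before the start in the RefSeq table (GRCh38.p14), each 5′ to 3′ on the gene's strand. They lie at chr20:31605039-31605288 (plus strand) for ID1, chr1:23559502-23559751 (minus strand) for ID3 and chr10:28677271-28677520 (plus strand) for BAMBI. The fourth run, chr20:31604264-31604389 (hg38, plus strand), holds the single GGCGCC found in the 2000 bases upstream of ID1, 965 bases before the start.
ID1 upstream: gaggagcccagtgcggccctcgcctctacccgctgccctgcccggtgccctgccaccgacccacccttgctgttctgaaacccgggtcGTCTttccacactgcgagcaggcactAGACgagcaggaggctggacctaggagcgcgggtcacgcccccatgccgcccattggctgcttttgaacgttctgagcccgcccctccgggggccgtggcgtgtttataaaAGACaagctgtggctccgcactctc
ID3 upstream: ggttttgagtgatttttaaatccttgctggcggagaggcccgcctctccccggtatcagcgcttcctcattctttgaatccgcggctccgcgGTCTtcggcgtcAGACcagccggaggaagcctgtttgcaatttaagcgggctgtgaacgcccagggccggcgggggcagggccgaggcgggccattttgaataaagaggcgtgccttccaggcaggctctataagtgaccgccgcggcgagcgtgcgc
BAMBI upstream: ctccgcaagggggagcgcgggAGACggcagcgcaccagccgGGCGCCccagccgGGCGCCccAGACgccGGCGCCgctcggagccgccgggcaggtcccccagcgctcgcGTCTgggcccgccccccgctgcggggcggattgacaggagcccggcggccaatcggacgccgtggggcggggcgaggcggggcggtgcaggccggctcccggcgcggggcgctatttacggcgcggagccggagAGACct
ID1 distal window: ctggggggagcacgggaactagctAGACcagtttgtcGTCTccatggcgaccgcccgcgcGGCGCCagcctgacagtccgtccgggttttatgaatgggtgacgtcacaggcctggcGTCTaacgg
The 250 bases of ID1 and of ID3 held no GGCGCC and those of BAMBI held 3. GTCT or AGAC occurred 3 times before ID1, 2 times before ID3 and 4 times before BAMBI. GGCGCC was in 19.2% of all 35116 RefSeq windows of 300 bases, and GTCT or AGAC was in 84.0% of them, with a median of 2 matches. In the 2000 bases upstream, GGCGCC was in 38.7% of starts, and GTCT or AGAC in 100.0%, with a median of 15, against 26 before ID1, 13 before ID3 and 25 before BAMBI. These matches describe the letters of the windows and no binding was measured. In the promoter table, 8 of the 10 genes matched by symbol, and BMP2 and BMP7 did not.

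Values are in TPM, a unit in which each gene's share of its library is corrected for the length of its transcripts, so levels of different genes can be set side by side on the TPM scale. Each library summed to between 908685 and 985497 TPM, and between 14982 and 17578 genes reached 1 TPM. The number of reads behind a value is unknown, and all 37 mitochondrial genes had a 0 in each library, so a 0 is given here only as listed at 0. The labels were checked against markers. POU5F1 stood at 3401 TPM in hPSC, SOX17 at 1139.7 in DE, PDX1 at 251 in PP2 and between 124 and 134 in the 4 ePP libraries, and INS at 10916 and 17374 in ePP-β and at 20657 in SC-β. Other markers of these lists did not all follow. NKX6-1 stood at 23.5 TPM in PP2 and between 176 and 213 in the ePPs, and SOX9 at 107 and between 106 and 161. CXCR4, of the definitive endoderm list, stood at 105 TPM in DE and at 147 and 226 in ePP-β. Mesenchyme markers were detected in full (9 of 9 at 1 TPM or more) in PP2 and SC-β, with sums of 1545 and 3166 TPM, against 110 to 146 TPM in the ePPs and 75.1 and 99.4 TPM in ePP-β. In bulk RNA, fewer cells of a type and less RNA per cell cannot be told apart.

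ID1 and ID3 were among the high transcripts of the progenitors and low in ePP-β. ID1 (ENSG00000125968; chromosome 20, 31605283-31606515, plus strand, GRCh38) stood at 663 and 726 TPM in ePP-P9, 784 and 976 in ePP-P21, and 32.1 and 30.1 in ePP-β. It stood at 399 TPM in hPSC, 88.6 in DE, 870.3 in PP2, 106 in SC-β, 707 and 659 in DMSO, and 478 and 833 in I-BET151. All 4 ePP libraries lay far above both ePP-β libraries, with means of 787 ± 135 TPM (SD, n = 4) and 31.1 ± 1.44 TPM (SD, n = 2), a ratio of 25.3.

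ID3 (ENSG00000117318; chromosome 1, 23557926-23559501, minus strand) had the highest level of the 10 genes in PP2, the ePPs, SC-β, the DMSO and I-BET151 groups by group mean, and in DE. It stood at 969 and 1112 TPM in ePP-P9, 1193 and 1231 in ePP-P21, and 67.7 and 60.6 in ePP-β. The other libraries held 192 TPM in hPSC, 122 in DE, 1118 in PP2, 232 in SC-β, 836 and 657 in DMSO, and 920.0 and 1389.9 in I-BET151. The ePP mean of 1126 ± 116 TPM (SD, n = 4) was 17.6 times the ePP-β mean of 64.2 ± 4.97 TPM (SD, n = 2), and the 2 groups did not overlap.

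ID2 and ID4 were also lower in ePP-β, by smaller factors. ID2 (ENSG00000115738; chromosome 2, 8678845-8684461, plus strand) stood at 519 and 549 TPM in ePP-P9, 583 and 712 in ePP-P21, and 157 and 192 in ePP-β, a ratio of means of 3.39. Unlike ID1, it was low at the start of the path, with 13.9 TPM in hPSC and 9.48 in DE, then 238 in PP2 and 147 in SC-β. In the I-BET151 experiment it held 620.0 and 639 TPM with DMSO and 476 and 896 with I-BET151. ID2 was thus the ID gene that stayed highest in ePP-β.

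ID4 (ENSG00000172201; chromosome 6, 19837370-19842197, plus strand) was the least abundant ID gene in the ePPs, at 31.5 and 34.3 TPM in ePP-P9 and 38.4 and 48.2 in ePP-P21. It was at 13.97 and 11.7 TPM in ePP-β, a ratio of means of 2.97. Its highest level was the 116 TPM of PP2, and it stood at 13.6 in hPSC, 3.84 in DE, 49.1 in SC-β, 31.6 and 58.2 in DMSO, and 37.9 and 83.1 in I-BET151. The SC-β library was above every ePP library for ID4, the reverse of ID1, ID2 and ID3, though in another batch. The genes overlapping ID2 and ID4 on the opposite strand, ID2-AS1 and LNC-LBCS, reached at most 1.16 and 1.04 TPM.

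**Figure D1:**
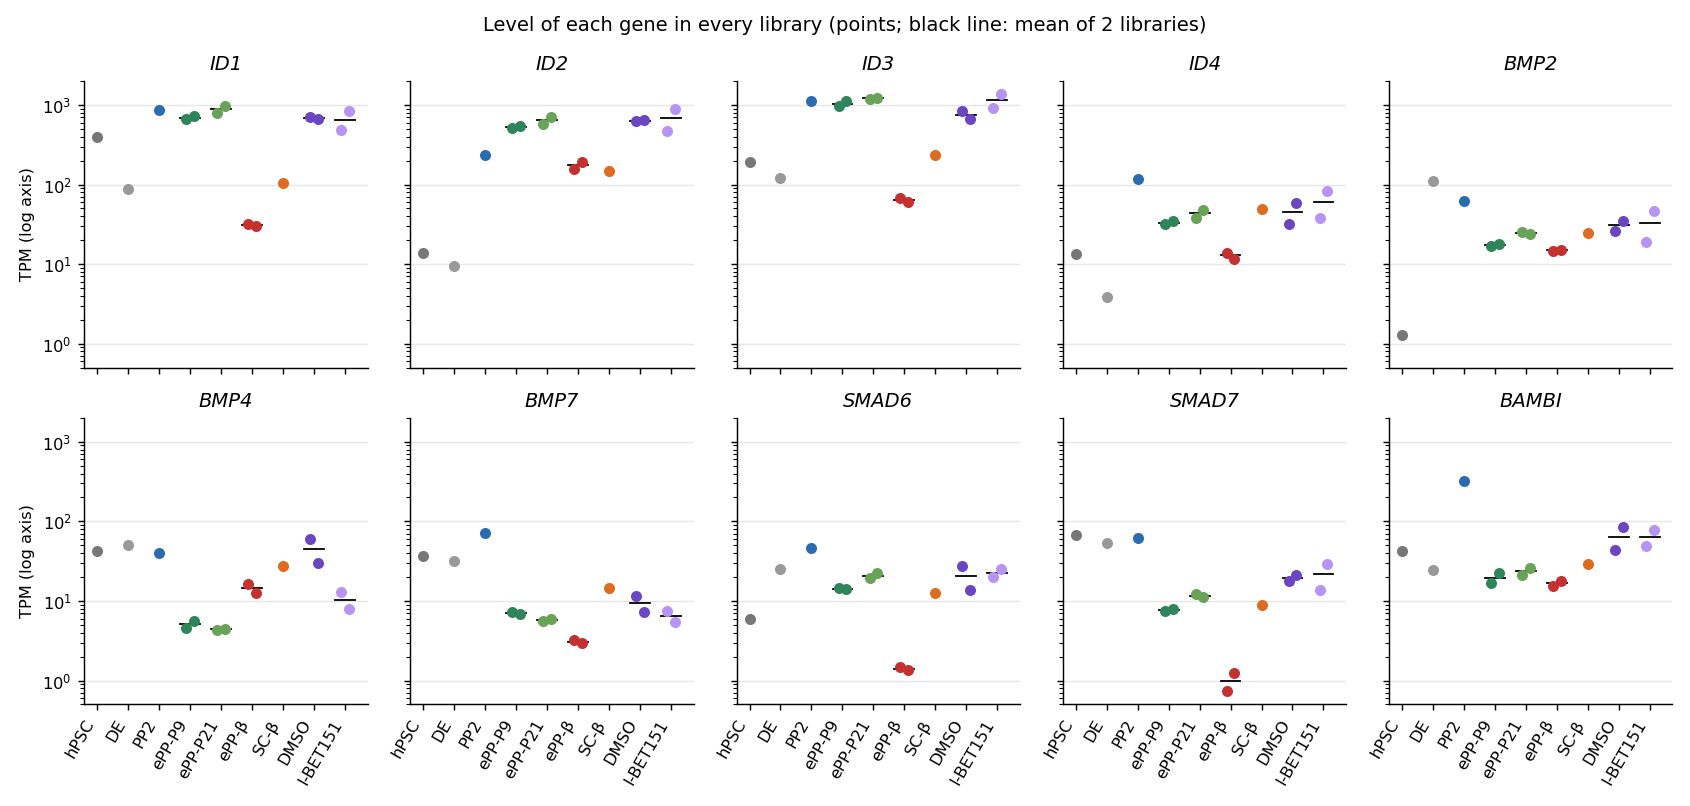
TPM of the 10 genes (log axis) in each of the 14 libraries, 1 point per library, with groups along the x axis and a black line at the mean of groups with 2 libraries. ID1, ID3, SMAD6 and SMAD7 were lower in ePP-β than in any other group, while BMP4 was higher in ePP-β (12.6 and 16.2 TPM) than in the ePPs (4.35 to 5.64 TPM).

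Summed over the 4 genes, ID transcripts made up 2182 to 2968 TPM in the ePPs and 271 and 294 TPM in ePP-β. The sum and the ratio that follow were added after the values were seen. In the ePPs, ID3 made up 41.5% to 45.9% of the sum, ID1 29.97% to 32.9% and ID2 22.4% to 24.0%. In ePP-β, ID2 led with 58.0% and 65.2%, and ID1 made up 11.9% and 10.2%. SC-β had a sum of 534 TPM and was led by ID3 with 43.5%, as the progenitors were.

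The E proteins TCF3, TCF4 and TCF12, the partners that ID proteins bind, were closer between the 2 groups. Their sum was 83.1 to 105 TPM in the ePPs, and 62.9 and 69.3 TPM in ePP-β. ID transcripts per E protein transcript were 22.5 to 31.3 in the ePPs and 4.31 and 4.25 in ePP-β. PP2 had a ratio of 5.78 although its ID sum was as high as that of the ePPs, with an E protein sum of 405 TPM, of which TCF3 made up 346 TPM. SC-β had a ratio of 6.10, DE 1.52 and hPSC 3.69, and the DMSO and I-BET151 libraries ranged from 14.8 to 41.4.

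**Figure D2:**
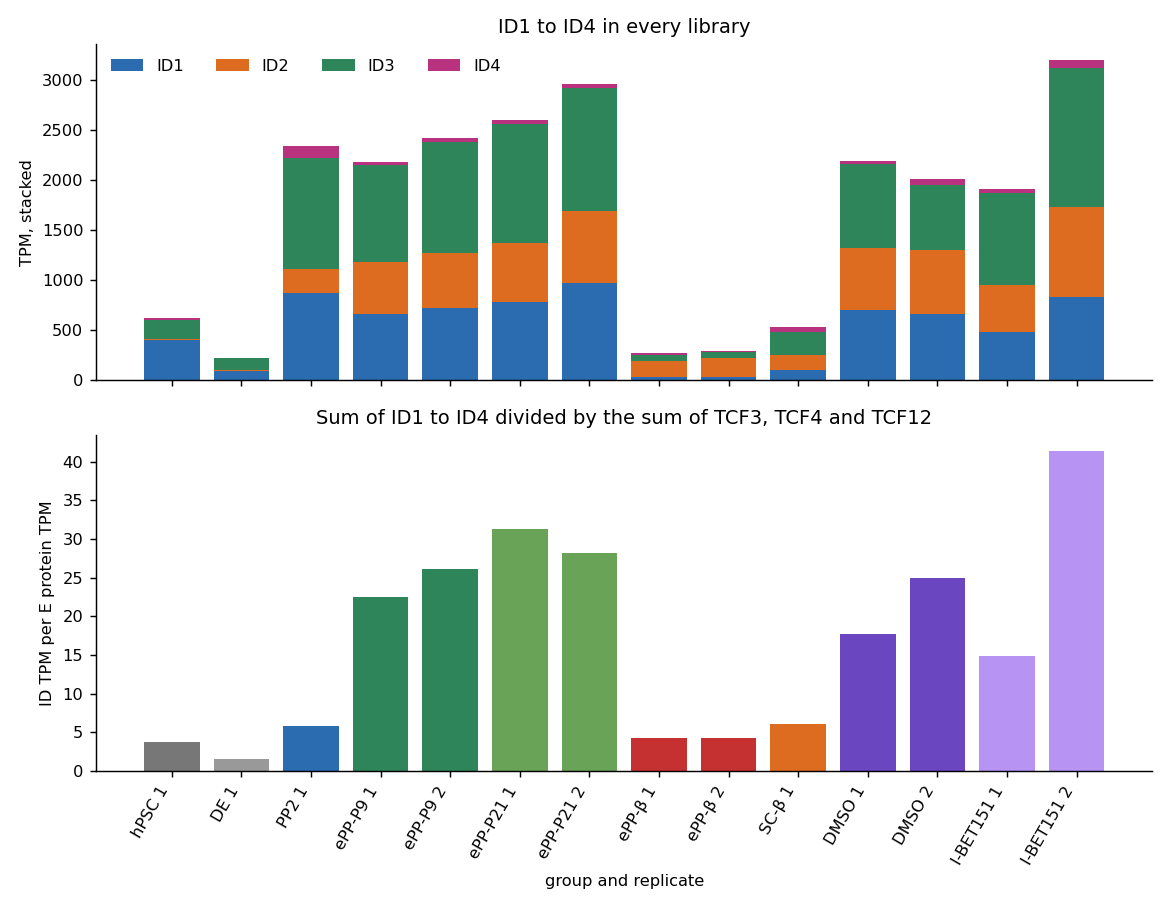
Upper panel: TPM of ID1 to ID4 stacked for each library. Lower panel: the ID sum divided by the TPM of TCF3, TCF4 and TCF12, with bars coloured by group; the ePP libraries lie between 22.5 and 31.3 and the ePP-β libraries at 4.31 and 4.25.

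The inhibitory SMADs were lower in ePP-β than in the ePPs, as ID1 and ID3 were, but their order over the other groups differed. In DE, where ID1 and ID3 ranked 8 of 9 groups by mean, SMAD6 ranked 2 and SMAD7 ranked 3. SMAD6 (ENSG00000137834; chromosome 15, 66702236-66782849, plus strand), which competes with the activated SMADs of the BMP branch, stood at 14.4 and 13.98 TPM in ePP-P9, 19.2 and 22.4 in ePP-P21, and 1.46 and 1.35 in ePP-β. It stood at 5.86 TPM in hPSC, 24.9 in DE, 45.97 in PP2, 12.5 in SC-β, 27.6 and 13.6 in DMSO, and 20.2 and 25.3 in I-BET151. The ePP-β libraries were the lowest of all, and the ratio of the ePP mean to the ePP-β mean was 12.5.

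SMAD7 (ENSG00000101665; chromosome 18, 48919853-48950965, minus strand), which blocks receptors of both the BMP and the TGF-β branch, stood at 7.56 and 7.86 TPM in ePP-P9, 12.3 and 11.1 in ePP-P21, and 0.740 and 1.25 in ePP-β. Its highest levels were in the first batch, with 67.9 TPM in hPSC, 53.3 in DE and 61.0 in PP2, and SC-β stood at 9.01. The DMSO libraries held 17.7 and 21.2 TPM and the I-BET151 libraries 13.8 and 29.2. The ratio of the ePP mean to the ePP-β mean was 9.77, with both ePP-β libraries near 1 TPM, where the log2 scale used for fold changes understates a difference.

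BAMBI (ENSG00000095739; chromosome 10, 28677510-28682932, plus strand), a receptor without a kinase that dampens signalling, did not separate the groups. It stood at 16.9 and 22.3 TPM in ePP-P9, 21.3 and 25.97 in ePP-P21, and 15.6 and 17.9 in ePP-β, so the ePP and ePP-β ranges overlapped. Its level in PP2 was 320 TPM, against 42.8 in hPSC, 24.7 in DE and 29.1 in SC-β. In the I-BET151 experiment it was at 43.9 and 84.5 TPM with DMSO and 48.9 and 78.6 with I-BET151.

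Among the ligands, BMP4 went the other way. BMP4 (ENSG00000125378; chromosome 14, 53949736-53958761, minus strand), a ligand with broad roles in mesoderm and gut patterning, stood at 4.56 and 5.64 TPM in ePP-P9, 4.35 and 4.46 in ePP-P21, and 16.2 and 12.6 in ePP-β, a ratio of ePP-β to ePP of 3.03. It was higher still in hPSC (43.0 TPM), DE (50.5), PP2 (40.1) and SC-β (27.3), and it stood at 60.05 and 29.95 TPM with DMSO and 12.9 and 7.83 with I-BET151. The ePP libraries were the lowest of the 14 for this gene.

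BMP2 (ENSG00000125845; chromosome 20, 6767686-6780246, plus strand), a ligand close to BMP4, stood at 16.9 and 17.7 TPM in ePP-P9, 25.7 and 24.0 in ePP-P21, and 14.8 and 15.1 in ePP-β. It went from 1.30 TPM in hPSC to 110 in DE, with 62.1 in PP2, 24.5 in SC-β, 25.96 and 35.2 in DMSO, and 18.7 and 46.9 in I-BET151. BMP7 (ENSG00000101144; chromosome 20, 57168753-57266641, minus strand), a ligand of another subgroup, stood at 7.25 and 6.77 TPM in ePP-P9, 5.56 and 5.92 in ePP-P21, and 3.18 and 2.98 in ePP-β. Both ligands were lower in ePP-β than in every ePP library, by ratios of means of 1.41 and 2.07. BMP7 was highest in PP2 (71.4 TPM), followed by hPSC (36.3), DE (31.7) and SC-β (14.4). Below these, the DMSO libraries (11.7 and 7.23) and the I-BET151 libraries (7.41 and 5.47) overlapped with ePP-P9.

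On the log2(TPM + 1) scale, the differences of ePP-β from ePP were -4.60 for ID1, -4.11 for ID3, -2.92 for SMAD6 and -2.41 for SMAD7. They were -1.75 for ID2, -1.49 for ID4, -0.85 for BMP7, -0.44 for BMP2, -0.34 for BAMBI and 1.42 for BMP4. In 8 of the 10 genes both ePP-β libraries lay below all 4 ePP libraries, in BMP4 they lay above them, and in BAMBI they overlapped. Among the 18076 genes tested, 31.6% were lower and 32.2% higher without overlap. The median of the 10 genes was -1.62, against -0.03 over all tested genes, and since the genes were chosen by this difference, nothing is read from these counts. The 3 cycling-cell markers summed to 232 to 267 TPM in the ePPs and 88.6 and 91.1 TPM in ePP-β, all 3 being detected in every library. The 4 liver markers summed to 122 to 151 TPM in the ePPs and to 14390 and 17033 TPM in ePP-β, of which TTR, also made by endocrine cells, held 13015 and 15556 TPM. AFP went from 84.9 to 113 TPM in the ePPs to 744 and 780 TPM in ePP-β, and ALB from at most 0.891 TPM to 54.9 and 42.2 TPM. The part of either marker list in these differences was not tested.

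PP2 and SC-β, 1 library each of another batch, gave a second pair of progenitors and β-like cells, with no replicate and no test. This pair was added after the values were seen. All 10 genes were lower in SC-β than in PP2, and 8 of 10 by at least 2-fold on the log2(TPM + 1) scale, as were 22.1% of the 18894 genes with 1 TPM in either library. The median difference of the 10 genes was -2.02, against -0.37 over those genes. Since the set was selected on values that include these libraries, nothing is read from these counts. BAMBI differed most (-3.41), followed by ID1 (-3.03), SMAD7 (-2.63), ID3 (-2.26) and BMP7 (-2.23). ID2 (-0.69) and BMP4 (-0.54) were the 2 genes under 2-fold. BMP4 was lower in SC-β than in PP2 but higher in ePP-β than in the ePPs, and the difference between the 2 pairs was not tested. The sum of the mesenchyme markers was high in PP2 and higher in SC-β, as given above, but the markers did not all rise. LUM went from 171 TPM in PP2 to 93.4 TPM in SC-β, PDGFRA from 20.2 to 10.1 and THY1 from 24.2 to 17.6. The others of the list rose, and the part of these markers was not tested.

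The rest of the pathway was counted from a list of 82 other genes by role, of which 56 passed the filter of 1 TPM in 2 libraries. A call needed both an adjusted p under 0.05 and a log2 fold change larger than 1 in size. In ePP-β against ePP, 16 of the 56 were called higher and 7 lower (13 and 10 after quantile normalization), against 17.9% and 9.86% of all tested genes (3237 higher and 1783 lower, or 2592 and 2866 after quantile normalization). Of the 16, 11 reached the filter only through the ePP-β libraries and so could hardly be called lower, and 1 of the 7 had no ePP-β library at 1 TPM. Among the 38 genes that reached 1 TPM in at least 2 ePP libraries and in 1 or more ePP-β libraries, 5 were called higher and 6 lower. The median log2 fold change of the 56 was 0.05 against -0.03, and no direction of the list is read from these counts. The calls were fewer than 23 when either ePP-β library was left out, which leaves that group with a lone sample. Of the 23 called genes, 11 reached 10 TPM in the higher group, and the other 12 were below it.

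Receptors were called 1 higher and 2 lower of 10 tested, the higher one through ePP-β alone. TGFBR3, a co-receptor also known as betaglycan, fell in ePP-β to 5.96 ± 2.13 TPM (SD, n = 2), the ePPs holding 15.7 ± 2.51 TPM (SD, n = 4). Its log2 fold change was -1.28 ± 0.21 (SE), and limma gave an adjusted p of 0.00284. BMPR1A, the type I receptor with the highest level in the BMP receptor list, held 22.9 to 27.8 TPM in the ePPs and 27.1 and 27.2 TPM in ePP-β, with a log2 fold change of 0.13 (95% interval -0.09 to 0.35). BMPR2, a type II receptor, held 4.54 to 6.50 TPM in the ePPs and 5.67 and 5.62 TPM in ePP-β, with 0.09 (-0.28 to 0.45). ACVR2A and ACVR2B, also type II receptors, had 0.29 (-0.04 to 0.62) and -0.27 (-0.55 to 0.004). BMPR1B, another type I receptor, was called lower, with -1.43 (-2.54 to -0.32). Its ePP-β libraries stood apart, at 0.278 and 3.13 TPM. BMPR1B, BMPR2, ACVR2A, ACVR2B and the SMADs of the next paragraph were picked for their roles after their values were seen.

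Of 9 SMAD effectors, co-repressors and ubiquitin ligases, 0 were called higher and 1 lower. An unadjusted p under 0.05 by limma was found for 5 of the 9, against 11251 of all 18076 tested genes, so nothing is read from that count. SKI, a co-repressor that binds SMAD complexes, held 25.8 ± 4.23 TPM (SD, n = 4) in the ePPs and fell in ePP-β to 9.37 ± 1.43 TPM (SD, n = 2). Its log2 fold change was -1.37 ± 0.16 (SE), and limma gave an adjusted p of 0.000756. The signal-transducing SMAD1 and SMAD5 had log2 fold changes of -0.26 (95% interval -0.77 to 0.25) and -0.27 (-0.46 to -0.08). For SMAD4, the common partner, the value was -0.44 (-0.70 to -0.17), and it was not called because it was smaller than 1. TOB1, an antiproliferative gene with the highest mean of this role over all 14 libraries (29.2 TPM), held 23.9 to 40.9 TPM in the ePPs and 25.9 and 24.0 TPM in ePP-β. In these libraries SMAD5 was higher on average, at 37.0 to 47.0 TPM and at 33.7 and 34.9 TPM.

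Secreted antagonists and modulators moved in both directions, with 2 higher and 2 lower of 10 tested. NBL1, a DAN-family protein that binds BMPs, was at 3.67 to 4.85 TPM in the ePPs and at 46.2 and 41.1 TPM in ePP-β, a log2 fold change of 3.10 ± 0.13 (SE) with an adjusted p of 1.72e-05 by limma. FSTL1, a secreted BMP-binding protein, fell from 70.1 ± 9.60 to 23.4 ± 0.0365 TPM. TWSG1, which forms complexes of BMP and chordin, fell from 74.3 ± 2.27 to 29.2 ± 2.68 TPM. Their log2 fold changes were -1.53 and -1.32, with adjusted p of 4.17e-05 and 6.92e-05 by limma. NBL1 was also high in SC-β (176 TPM) against PP2 (44.5 TPM) and in DE (169 TPM), each 1 library. In SC-β and PP2, FSTL1 stood at 32.3 and 148 TPM and TWSG1 at 34.5 and 36.9 TPM. Among called genes of other roles with at least 10 TPM, TGFBR3 was higher in SC-β (61.3 against 31.2 TPM). TGFB2 was lower there (5.92 against 9.89 TPM), so both went the other way. SKI, SMAD3, NEUROD1, ACVR1C and LEFTY1 kept the direction they had in ePP-β against ePP.

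Of the tissue-restricted bHLH factors, the class whose action ID proteins oppose, 4 were tested and called higher in ePP-β, but 3 of them reached the filter only through the ePP-β libraries, so nothing is read from this count. NEUROD1, a driver of endocrine genes that also stood in the endocrine marker list, was at 0.0249 to 0.219 TPM in the ePPs and at 334 and 317 TPM in ePP-β. Of the E proteins, 0 of 2 tested were called and 1 had an unadjusted p under 0.05 by limma, against 11251 of all 18076 tested genes. TCF3 went from 58.1, 59.2, 57.9 and 69.6 TPM in the ePPs to 31.7 and 33.6 TPM, a log2 fold change of -0.88 (95% interval -1.12 to -0.65), which stayed under the size limit.

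Of the other targets of BMP signalling, 3 of 7 were tested, and 2 were called higher and 0 lower. All 3 reached the filter only through ePP-β, so no gene of this role could be called lower. None of the 3 reached 10 TPM, and nothing is read from these counts. The TGF-β and activin branch, which runs beside the BMP branch and shares SMAD4, had 6 higher and 1 lower of 13, and 3 of the 6 reached the filter only through ePP-β. ACVR1C (ALK7), a type I receptor for activin-like ligands, was at 0.749 to 1.31 TPM in the ePPs and at 145 and 129 TPM in ePP-β. TGFB2, a TGF-β ligand, rose from 1.47 ± 0.576 to 31.8 ± 5.32 TPM, and LEFTY1, an inhibitor of nodal ligands, rose from 8.58 ± 2.04 to 39.9 ± 0.507 TPM. SMAD3, a transducer of this branch, fell from 20.8 ± 5.10 to 9.73 ± 2.13 TPM. Its log2 fold change of -1.005 was just past the size limit, and limma gave an adjusted p of 0.00176.

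**Figure D3:**
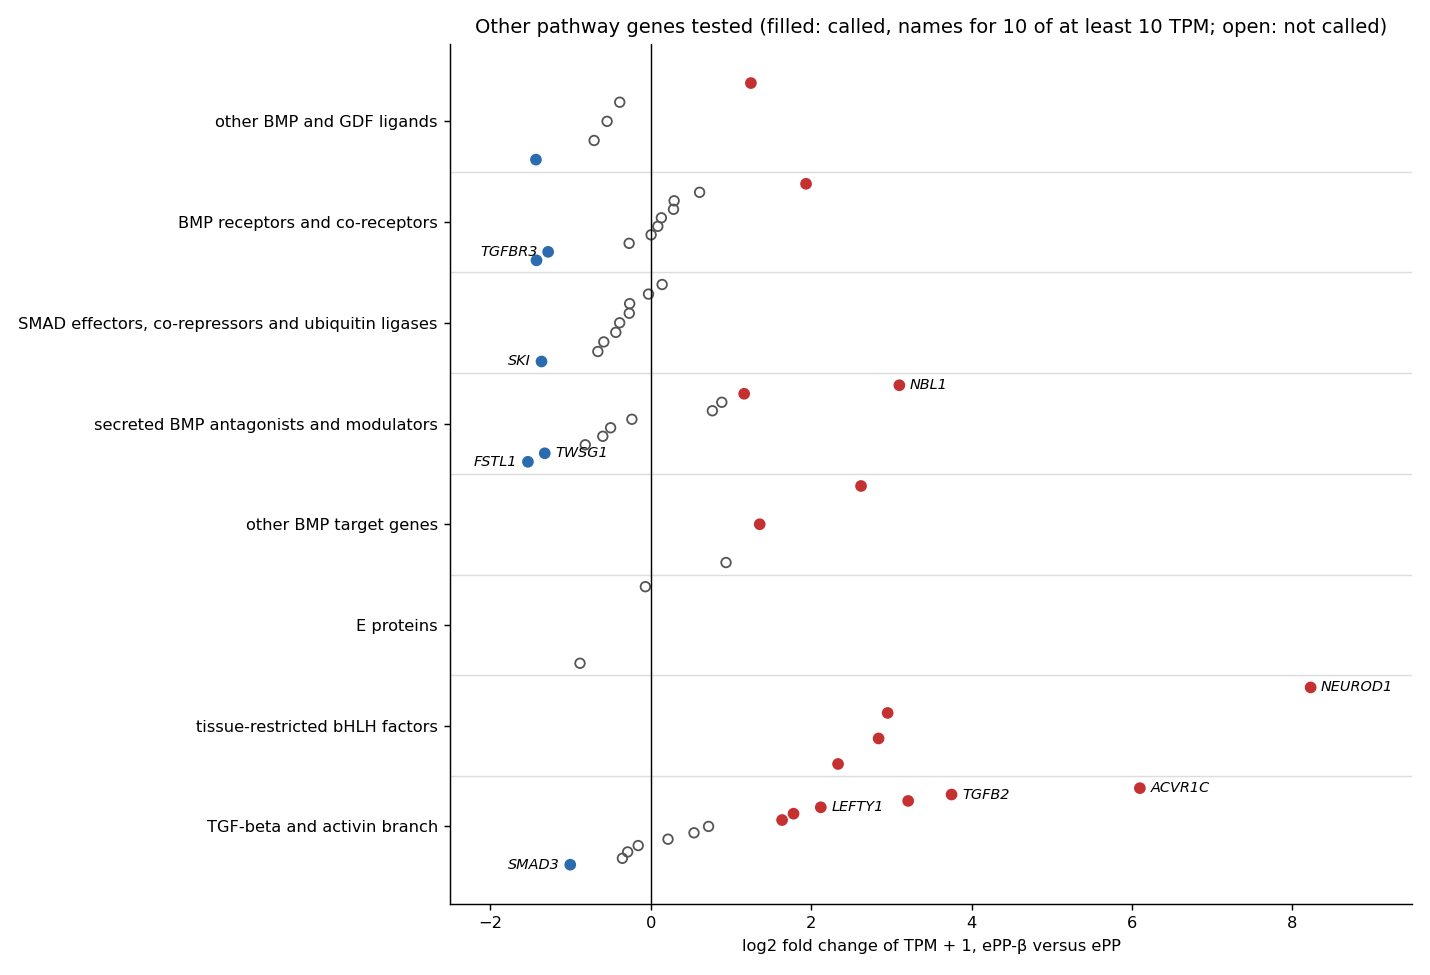
Log2 fold change of TPM + 1 between ePP-β and ePP for the 56 other pathway genes tested, in rows by role, 1 point per gene, spread in height only for legibility. Filled points were called by limma (16 higher in red, 7 lower in blue, against 17.9% and 9.86% of all tested genes), with names for 10 of the 11 that reached 10 TPM. Of the 16, 11 reached the filter only through the ePP-β libraries, NEUROD1 among them. Of the 10 receptors, 1 was called higher and 2 lower. Of the 9 SMAD effectors, co-repressors and ubiquitin ligases, 8 lie below 0, with a median of -0.39. NEUROD1 (8.23) and ACVR1C (6.10) lie farthest to the right.

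The I-BET151 experiment asked how progenitors in culture respond to BET inhibition. In this comparison, 0 of the 10 genes were called, against 0.21% of 16687 tested genes, and 1 of 10 had an unadjusted p under 0.05 by limma, against 15.2%. That gene was BMP4, with a log2 fold change of -1.97 ± 0.47 (SE; 95% interval -3.18 to -0.77) and an adjusted p of 0.156. Both I-BET151 libraries (12.9 and 7.83 TPM) lay below both DMSO libraries (60.05 and 29.95 TPM), as in 18% of tested genes. When 1 library was left out, the log2 fold change of BMP4 ranged from -2.46 to -1.48. BMP4 was lowest in the ePPs, which were grown with I-BET151, but in another batch and for many passages.

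For the ID genes the intervals were wide. For ID1 the log2 fold change was -0.11 (95% interval -1.12 to 0.89), for ID2 0.05 (-1.01 to 1.12), for ID4 0.38 (-0.97 to 1.73) and for ID3 0.61 (-0.35 to 1.57, adjusted p = 0.506 by limma). For ID1 and ID2 the 2 I-BET151 libraries lay on either side of both DMSO libraries. ID3 was higher in both I-BET151 libraries than in both DMSO libraries, as were 28.7% of tested genes. The intervals of ID1, ID2, ID3 and ID4 hold changes of 1 log2 unit in 1 or both directions. This unpaired fit of 2 libraries a group therefore does not exclude changes of that size. A fit with the replicate number as a block, which called more genes, is given further below. The study, with a test on counts, also reported more changed genes at the same thresholds.

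The values for SMAD6 (0.21), SMAD7 (0.06), BAMBI (0.02), BMP2 (-0.02) and BMP7 (-0.47) were not called, with adjusted p of 0.614 or more by limma. The signs of ID2, SMAD7 and BAMBI turned when each library was centred on its median. In the 82-gene list, 48 were tested, 0 were called and 11 had an unadjusted p under 0.05 by limma. The counts with 1 library left out are given further below, beside those over all genes. The libraries of a group differed in makeup: ribosomal protein genes took 20.3% and 27.8% of TPM in DMSO and 16.8% and 27.7% in I-BET151. Liver markers (4 of 4 detected in each library) summed to 7126 and 7165 TPM in DMSO and 856 and 2174 TPM in I-BET151, and their part in the BMP4 value was not tested.

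**Figure D4:**
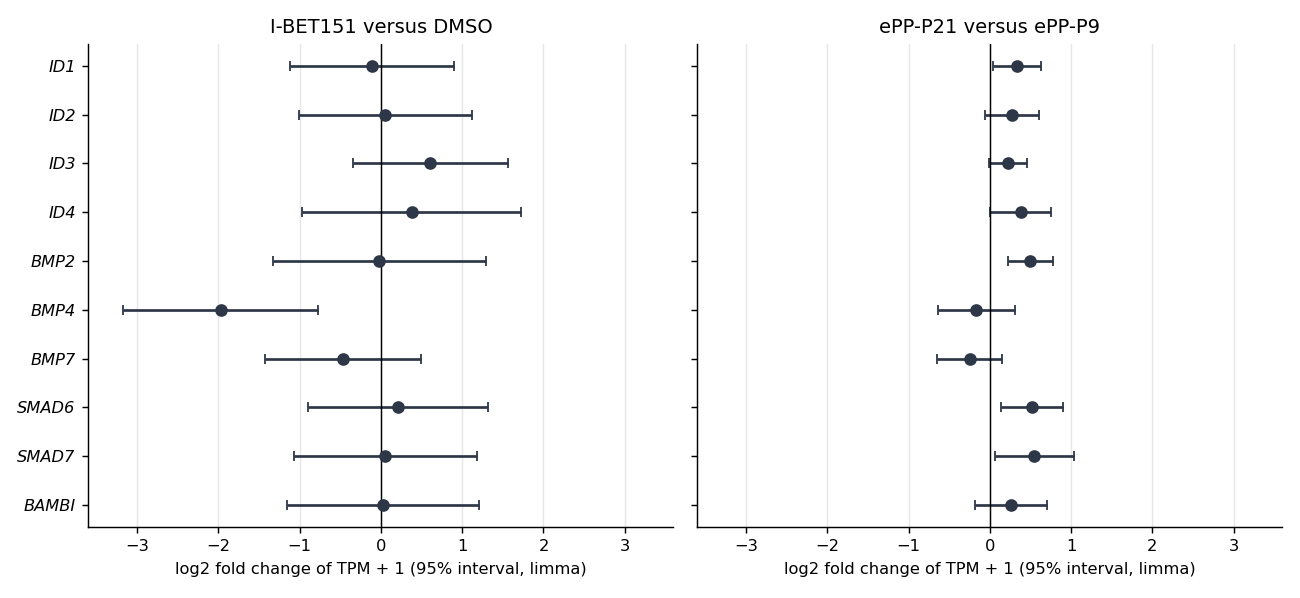
Log2 fold change of TPM + 1 with its 95% interval from limma for the 10 genes, in I-BET151 against DMSO (left) and ePP-P21 against ePP-P9 (right). On the left only the interval of BMP4 (-3.18 to -0.77) lies apart from 0; on the right the intervals are narrower and 5 of them (ID1, ID4, BMP2, SMAD6 and SMAD7) lie above 0, with no adjusted p under 0.05 on either side.

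Passage 21 was compared with passage 9 to see whether the levels drifted during expansion. None of the 10 genes was called (0 of 10, against 0.0111% of 18076 tested genes), and 5 of 10 had an unadjusted p under 0.05 by limma, against 19.4%. With each library centred on its median there were 2 of 10 (against 3520 of the 18076 genes), and the count moved when 1 library was left out. In the uncentred fit the 5 were BMP2 (log2 fold change 0.50, adjusted p = 0.115), SMAD6 (0.52, adjusted p = 0.168), ID1 (0.33, adjusted p = 0.214), SMAD7 (0.54, adjusted p = 0.218) and ID4 (0.38, adjusted p = 0.251). In 7 genes, ID1 to ID4, BMP2, SMAD6 and SMAD7, both libraries of passage 21 lay above both of passage 9, as in 39.3% of tested genes, and in BMP4 and BMP7 they lay below, as in 12.6%.

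The median log2 fold change of the 10 genes was 0.30, against 0.11 over all tested genes, and the latter moved to -0.09 when each library was centred on its median, by which ID1 went from 0.33 to 0.13 and ID3 from 0.22 to 0.02. The largest upper limit of a 95% interval was 1.03, for SMAD7. For ID1 the interval was 0.04 to 0.63 and for ID3 -0.02 to 0.46. Of the 82-gene list, 56 were tested, 0 were called and 13 had an unadjusted p under 0.05 by limma.

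The genes whose pattern was most like that of ID1 were sought among 12270 genes with 10 TPM in at least 2 libraries, by Pearson's r of log2(TPM + 1) over the 14 libraries, which share batches and groups. Outside the set they were EGR1 (r = 0.947), an early-response transcription factor, FRAT2 (0.947), an activator of WNT signalling, DGKD (0.928), a diacylglycerol kinase, IGFBP6 (0.921), which binds insulin-like growth factors, and FLT1 (0.910), a VEGF receptor. Inside the set, r with ID1 was 0.951 for ID3, 0.763 for SMAD6, 0.679 for ID4, 0.555 for SMAD7, 0.517 for ID2 and 0.474 for BAMBI. For the ligands it was 0.202 (BMP7), 0.071 (BMP2) and -0.245 (BMP4). EGR1 was at 22.4 ± 10.3 TPM (SD, n = 4) in the ePPs and 0.437 TPM in ePP-β, and IGFBP6 at 79.9 ± 5.41 TPM (SD, n = 4) and 0.791 TPM.

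By group mean, ID1 ranked from ePP-P21 (880.4 TPM) and PP2 (870.3) through ePP-P9 (694), DMSO (683), I-BET151 (656), hPSC (399), SC-β (106) and DE (88.6) to ePP-β (31.1). The neighbours ePP-P21 and PP2 overlapped, as did ePP-P9, DMSO and I-BET151. SMAD6 and SMAD7 were also lowest in ePP-β, and so were ID3, BMP7 and BAMBI, the last overlapping with ePP-P9. ID4 and ID2 were lowest in DE, BMP2 in hPSC, and BMP4 in ePP-P21. PP2 was the highest group for ID4, BMP7, SMAD6 and BAMBI. In these orders, groups of different batches cannot be told apart from their batches.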

How the data were processed

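Total RNA of 14 samples was sequenced as paired ends after NEBNext Ultra library preparation. The authors aligned reads to hg38 with HISAT2 2.1.0 (per the labels), assembled transcripts with StringTie and deposited TPM per Ensembl gene, and no scaling between libraries was added. Which annotation release was used, and whether counting was stranded, is not given in the sources used here, so reads of overlapping antisense genes could not be separated. Of 60624 identifiers, 60370 matched GENCODE release 44, which gave symbols and positions. TPM keeps no depth, so no counting interval is given and precision rests on 2 libraries a group.

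Samples were grouped by title. Genes with 1 TPM or more in at least 2 libraries of a fit were tested as log2(TPM + 1) with limma 3.58.1 in R 4.3.3 (eBayes with trend, two-sided, Benjamini-Hochberg adjustment over all tested genes). DMSO and I-BET151 were fitted alone, and ePP-P9, ePP-P21 and ePP-β together. Calls needed an adjusted p under 0.05 and a log2 fold change beyond 1, the thresholds of the study, whose own count test could not take TPM. The code was tested on simulated data. ± is the SD unless SE is stated. Whether replicates were separate cultures is not stated, so p-values measure the spread between these samples, which may be technical. The members and the lists were chosen with earlier results of these data known. Named genes were the members, called list genes with at least 10 TPM in the higher group, the highest gene of each role and the 5 genes most like ID1. The values of 1 gene that met this rule are not reported here. Alternatives changed the pseudocount (0.1), the filter (none, or 5 TPM), the scaling, the replicate block and the libraries included.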

Additional observations from a re-analysis of the deposited data

How the results depend on the processing

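In ePP-β against ePP the direction of all 10 genes was kept under every alternative tried, and the log2 value of ID1 ranged from -4.68 to -4.52 when 1 library was left out. The 23 pathway calls became 15 with a filter of 5 TPM, by which fewer genes were tested, and ranged from 11 to 23 when 1 library was left out. In ePP-P21 against ePP-P9 no alternative called any of the 10 genes or any pathway gene. The count over all genes, 2 in the main fit, was 25 with a pseudocount of 0.1, 1 with no filter, 49 with the 5 TPM filter, 6 with median centring, 7 with quantile normalization, 6 without ribosomal protein genes, 178 with only the ePP libraries fitted, and 0 to 189 when 1 library was left out. In I-BET151 against DMSO the count over all genes, 35 in the main fit, was 0 with a pseudocount of 0.1 (2462 at an unadjusted p under 0.05 by limma), 0 with no filter (4535 at an unadjusted p under 0.05 by limma), 120 with median centring, 138 with quantile normalization, 78 without ribosomal protein genes, and 107 to 1034 when 1 library was left out. Over the same omissions, 0 to 1 of the 10 genes and 0 to 3 pathway genes were called. The causes of these shifts were not tested. Signs of small I-BET151 values turned. With median centring ID2 was -0.0265, SMAD7 -0.0244 and BAMBI -0.0557, with quantile normalization SMAD7 was -0.0213 and BAMBI -0.0756, and without ribosomal protein genes BAMBI was -0.0021. When 1 library was left out, log2 values ranged from -0.51 to 0.29 for ID1, -0.40 to 0.51 for ID2, -0.18 to 0.94 for ID4, -0.66 to 0.62 for BMP2, -0.28 to 0.69 for SMAD6, -0.46 to 0.57 for SMAD7 and -0.44 to 0.49 for BAMBI. Leaving out 1 library leaves a group with a lone sample, assumed to vary like the others.

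The groups share replicate numbers that the labels tie to no culture, batch or day. Differences between replicates 2 and 1 correlated across 16687 genes at r = 0.675 between DMSO and I-BET151, and at -0.00933, 0.0323 and 0.0424 between the pairs of groups in the ePP batch, so the ePP batch gives no sign of pairing, while in the I-BET151 batch the 1 pair of groups varied together, a hint from the data and not from the design. Libraries were not treated as paired. With the replicate number as a block, I-BET151 against DMSO had 2294 genes called (828 higher and 1466 lower), 9 pathway genes (4 higher and 5 lower) and 1 of the 10 genes, BMP4, with an adjusted p of 0.00714 by limma, against 0.0154 to 0.604 over its other alternatives. With the block, ePP-P21 against ePP-P9 had 0 genes called (3732 at an unadjusted p under 0.05 by limma), and ePP-β against ePP kept 16 pathway genes called higher and 7 lower.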

Other observations

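The DE library had the lowest ID sum of the 14 libraries (224 TPM) and the highest level of several secreted inhibitors. CER1, an inhibitor of nodal, BMP and WNT ligands, was at 8009 TPM in DE, 238 TPM in hPSC and at most 1.07 TPM in the other 12 libraries. LEFTY1 was at 997 TPM in DE and 474 TPM in hPSC, and FST, which binds activins and BMPs, was at 75.8 TPM in DE and 12.3 TPM in hPSC. These are single libraries with no replicate, and FST was chosen after its values were seen. The same DE library held the highest BMP2 level (110 TPM) and, by group mean, the highest BMP4 level (50.5 TPM). BMP7 (31.7 TPM) was below its levels in PP2 and hPSC, and SMAD6 and SMAD7 stood at 24.9 and 53.3 TPM. The methods list activin A for the first days of differentiation. Whether the inhibitors or activin A had a part in the low ID sum was not tested.

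HAND1, a BMP target of mesoderm and the highest gene of its list, was at 136 TPM in PP2 and 19.2 TPM in SC-β, and was listed at 0 in all 4 ePP libraries. PP2 and SC-β were also the libraries with all 9 mesenchyme markers. GDF2 (BMP9), a circulating ligand made by the liver, was at 41.0 TPM in SC-β, at 0.0242 TPM in DMSO replicate 1 and listed at 0 in the other 12 libraries. Liver markers summed to 27818 TPM in SC-β and to 14390 and 17033 TPM in ePP-β, where GDF2 was listed at 0. TTR, also made by endocrine cells, held 24727 TPM of the sum in SC-β and 13015 and 15556 TPM in ePP-β. ALB stood at 560 TPM in SC-β and at 54.9 and 42.2 TPM in ePP-β. GDF2 was chosen after its values were seen, and the part of other cell types in these values was not tested.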
